A study of Mus musculus with 8 samples.

Results

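The genes described here are the collagen chains, taken as every row of the deposited table whose symbol has the form Col, number, a, number and nothing else. The rule found 44 of the 52110 rows that carry a gene symbol. It uses no measured value, but it was set with earlier results of these data known. By class they were 11 fibrillar chains, 9 network-forming chains, 9 fibril-associated chains (FACITs), 6 beaded-filament chains of type VI, 4 transmembrane chains and 2 multiplexins, and 3 chains (Col7a1, Col26a1 and Col28a1) belong to none of these classes. Of the 44, 37 had enough counts to be tested and 7 did not. The cells were primary fibroblasts from wild-type mouse lung, either left without stimulation or given recombinant TWEAK protein at 10, 30 or 100 ng/ml for 48 h before RNA was taken for sequencing. Each of the 4 groups had 2 libraries, 8 in all. Nothing in the labels tells whether a pair of libraries stems from different cultures or mice, and the p-values therefore reflect only library-to-library spread, possibly technical.

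Collagens are secreted or membrane proteins in which 3 chains wind into a triple helix, and the chains that pair up are encoded by separate genes. Types I, III and V assemble into the striated fibrils of the lung interstitium, type IV chains form the mesh of basement membranes, type VI chains form beaded filaments next to cells, and FACITs sit on fibril surfaces. Lung fibroblasts are the main makers of fibrillar collagen in this tissue, and their collagen output is the matrix that accumulates in fibrosis. TWEAK (Tnfsf12) is a cytokine of the tumour necrosis factor family that binds the receptor Fn14 (Tnfrsf12a) and is known to activate NF-kB signalling. The comparisons ask how the level of each chain at each dose stood against untreated cells, and how the doses stood against each other.

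Library totals ran from 37278985 to 50810783 counts, so that 3 counts in a library corresponded to 0.059 to 0.0805 counts scaled to the library total (CPM). Levels below are CPM scaled by the trimmed mean of M values (TMM), and changes are log2 changes ± SE from edgeR's quasi-likelihood test with p-values adjusted by Benjamini-Hochberg over all 17360 genes tested. A chain is said to have risen or fallen where its adjusted p was below 0.05. The libraries labelled 100 ng/ml stood nearer to the untreated libraries than to the other doses. On the first principal component of all tested genes, which held 49.7% of the variance, the untreated libraries were at -67.56 and -66.54, the 100 ng/ml libraries at -36.19 and -37.71, the 30 ng/ml libraries at 48.66 and 35.34 and the 10 ng/ml libraries at 61.44 and 62.57. Groups are as the labels give them, and nothing in the files checks the dose of a library, so every dose named here is the labelled dose. The numbers in the deposited column names run from untreated through 100 and 30 to 10 ng/ml, the order of the groups on the first principal component. An exchange of dose labels and a response that does not follow the dose cannot be told apart. Without both 100 ng/ml libraries, the number of chains called was 24 at 10 ng/ml and 23 at 30 ng/ml, against 25 and 23 with them. Summed fibroblast markers (10 genes, all tested) were at 15770 to 16610 CPM in untreated libraries, 11110 to 11910 at 10 ng/ml, 11550 to 12980 at 30 ng/ml and 15700 to 15820 at 100 ng/ml, and fibronectin (Fn1) carried the whole difference. Without Fn1, the other 9 genes summed to 4615 and 4658 CPM untreated, 4877 and 5019 at 10 ng/ml, 4869 and 4669 at 30 ng/ml and 4274 and 4616 at 100 ng/ml. Within the list, members moved in both directions at 10 ng/ml. Vim was at 835.8 and 874.9 CPM untreated and 1258 and 1210 at 10 ng/ml, and Pdgfra and Dcn were also higher. Pdgfrb was at 834.7 and 781.3 CPM untreated against 456.7 and 434.4 at 10 ng/ml. Fbln1 was at 256.8 and 250.7 CPM against 47.4 and 41.6, and Thy1, Lum and Fap were also lower. S100a4 overlapped between these groups. Dcn and Lum of this list also stand in the list for fibril assembly below. The epithelial list (10 genes) summed to at most 2.93 CPM in any library with Epcam and Nkx2-1 at 0, and the endothelial list (7 genes) to at most 7.69 CPM with Emcn at 0. Endothelial members moved in both directions at 10 ng/ml. Cdh5 was at 0.18 and 0.12 CPM untreated and 4.27 and 3.81 at 10 ng/ml. Tek was at 4.494 and 4.975 CPM untreated and 1.229 and 1.683 at 10 ng/ml.

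The upstream sequences of 4 genes are shown because these genes had large changes at 10 ng/ml in opposite directions. Col3a1 and Col8a1 fell and Col5a3 and Col7a1 rose. Each is the 250 bases before the annotated start of the gene in RefSeq (GRCm38.p6), written 5′ to 3′ on the strand of the gene, and none of the 4 windows holds an annotated exon base. Capitals mark matches, on either strand, to the CCAAT box (CCAAT), the GC box (GGGCGG) and the TATA box (TATAA). The windows are chr1:45311288-45311537 (+ strand) for Col3a1, chr16:57754738-57754987 (- strand) for Col8a1, chr9:20815068-20815317 (- strand) for Col5a3 and chr9:108953336-108953585 (+ strand) for Col7a1.
Col3a1: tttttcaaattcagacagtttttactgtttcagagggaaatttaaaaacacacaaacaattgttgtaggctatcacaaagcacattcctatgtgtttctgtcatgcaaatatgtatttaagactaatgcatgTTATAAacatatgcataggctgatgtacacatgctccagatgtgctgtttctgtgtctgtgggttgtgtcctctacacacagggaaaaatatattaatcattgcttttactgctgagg
Col8a1: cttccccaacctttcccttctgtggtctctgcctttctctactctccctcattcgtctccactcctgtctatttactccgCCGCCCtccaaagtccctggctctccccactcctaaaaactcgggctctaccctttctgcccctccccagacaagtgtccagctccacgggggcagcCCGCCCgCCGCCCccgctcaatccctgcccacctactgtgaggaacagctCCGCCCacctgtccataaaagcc
Col5a3: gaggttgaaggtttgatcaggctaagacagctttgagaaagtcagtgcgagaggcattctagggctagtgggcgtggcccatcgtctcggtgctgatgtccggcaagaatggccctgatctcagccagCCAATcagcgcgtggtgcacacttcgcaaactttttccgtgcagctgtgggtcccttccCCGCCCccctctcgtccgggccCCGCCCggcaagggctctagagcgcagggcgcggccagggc
Col7a1: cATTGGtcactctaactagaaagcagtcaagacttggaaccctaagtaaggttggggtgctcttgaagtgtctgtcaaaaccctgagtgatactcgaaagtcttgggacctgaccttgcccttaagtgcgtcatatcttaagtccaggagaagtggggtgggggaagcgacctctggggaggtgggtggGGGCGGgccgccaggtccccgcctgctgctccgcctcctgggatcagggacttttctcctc
The Col3a1 window had a GC content of 35.2% and a TATA box whose reverse complement overlapped it by all but 1 base, with neither of the other motifs. The Col8a1 window had 60.8% GC and 4 GC boxes, the Col5a3 window 62.8% GC with 2 GC boxes and 1 CCAAT box, and the Col7a1 window 56.4% GC with 1 of each of these. RefSeq windows were matched for 35 of the 44 chains (38 windows, since a gene can have more than 1). The GC box was in 22 of the 38 windows and in 32.7% of all 32851 promoter windows of the same length. The CCAAT box was in 13 (33.8% of all windows) and the TATA box in 7 (22.8% of all windows). Among chains that rose at 10 ng/ml, Col5a3, Col7a1, Col18a1 and Col6a4 had a window with a CCAAT box. Among those that fell, Col11a1, Col1a2, Col4a1, Col4a2, Col4a5 and Col16a1 did. The window of Col28a1, which also fell, is not shown and had 40.4% GC with none of these motifs. The 4 genes shown were picked by their changes, so their motifs do not describe chains that rose or fell. These are letter matches in 1 window per start and are given as a description.

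Collagen transcripts as a whole took a smaller share of the library at 10 and 30 ng/ml. They made up 2.53% and 2.47% of the counts in the untreated libraries, 1.22% and 1.21% at 10 ng/ml, 1.32% and 1.52% at 30 ng/ml and 2.25% and 2.31% at 100 ng/ml. The 4 libraries at 10 and 30 ng/ml lay below all others, and the 100 ng/ml libraries lay just under the untreated ones. Each of these shares rests on 454820 to 1284706 collagen counts, and the Wilson 95% interval of the first untreated library was 2.52% to 2.53%, for counting error only. In bulk RNA, fewer cells of a type and less RNA per cell cannot be told apart.

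**Figure D1:**
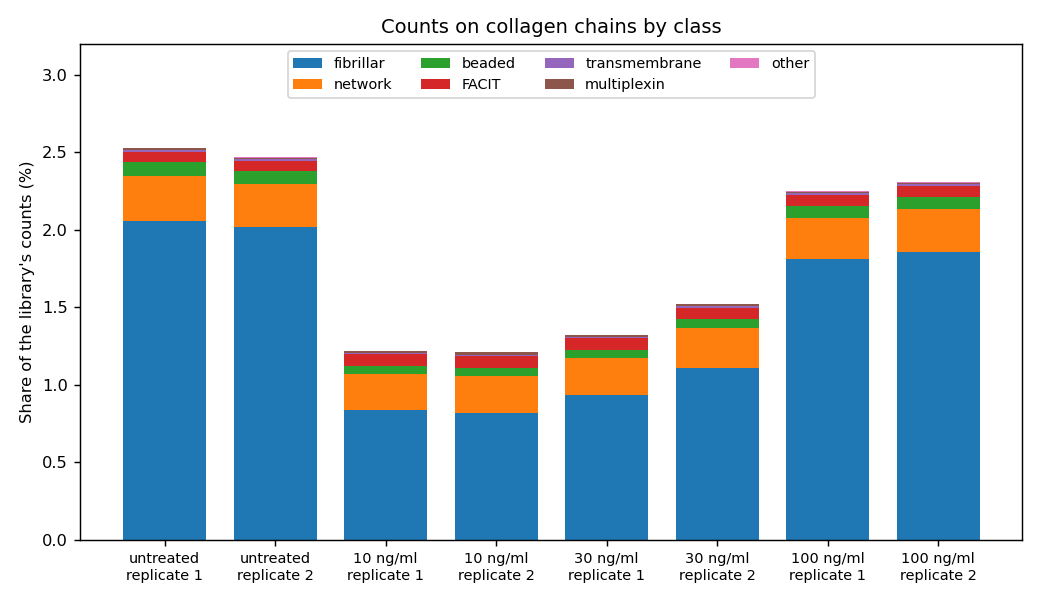
Stacked bars of the share of each library's counts (%, vertical axis) that fell on collagen chains of each class, 1 bar per library. The bars reach 2.53% and 2.47% without TWEAK, between 1.21% and 1.52% at 10 and 30 ng/ml and 2.25% and 2.31% at 100 ng/ml, and most of the difference lies in the fibrillar part.

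The mix of classes differed too. Fibrillar chains held 81.3% and 81.8% of collagen counts in untreated libraries, 68.8% and 67.7% at 10 ng/ml, 70.8% and 72.9% at 30 ng/ml and 80.5% and 80.4% at 100 ng/ml. Network chains went the other way as a share of collagen counts, with 11.6% and 11.3% untreated and 19.1% and 19.6% at 10 ng/ml. They held 18.0% and 16.8% at 30 ng/ml and 12.0% and 12.2% at 100 ng/ml. As a share of the whole library, network chains were lower, with 0.294% and 0.279% untreated against 0.233% and 0.237% at 10 ng/ml. FACITs held 2.70% and 2.64% of collagen counts untreated against 5.97% and 6.44% at 10 ng/ml. As a share of the whole library FACITs were somewhat higher, with 0.0682% and 0.0652% untreated against 0.0728% and 0.0781% at 10 ng/ml. At 30 ng/ml they held 0.0736% and 0.0750% of the library. Col3a1 alone held 34.9% and 35.5% of collagen counts in untreated libraries and 15.9% and 15.7% at 10 ng/ml. Col1a1 and Col1a2 together held 33.3% and 33.1% against 38.9% and 37.5%. Of the whole library, Col1a1 and Col1a2 together held less, with 0.84% and 0.82% untreated against 0.47% and 0.45% at 10 ng/ml.

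At 10 ng/ml, 25 of the 37 tested chains passed the test, where 29.2% of all genes tested did. Of these, 7 rose (15% of all genes) and 18 fell (14.2% of all genes). The median log2 change of the 37 chains was -0.52, against 0.01 for all genes tested. All 6 chains with a mean of 1000 CPM or more fell. Of the 9 chains between 100 and 1000 CPM, 6 fell and 3 rose, and of the 7 between 10 and 100 CPM, 4 fell, 1 rose and 2 did not pass. Of the 10 chains between 1 and 10 CPM 3 rose and 2 fell, and none of the 5 below 1 CPM passed. At 30 ng/ml, 23 of 37 passed (23.3% of all genes), with 6 higher (12.6% of all genes) and 17 lower (10.7% of all genes) and a median log2 change of -0.39 (all genes 0.01). At 100 ng/ml, 3 of 37 passed (1.12% of all genes), all higher (0.812% of all genes) and 0 lower (0.305% of all genes) by edgeR, with a median of -0.09 (all genes 0.00), 14 at an unadjusted p under 0.05 (11.6% of all genes) and 5 by DESeq2 (3.86% of the 15340 genes it gave an adjusted p). With only those groups fitted, edgeR called 1 higher, Col5a3, and 2 lower, Col1a1 and Col3a1 (1.04% of all genes). Without the first 30 ng/ml library it called 2 higher, Col5a3 and Col22a1, and 2 lower, Col3a1 and Col5a2 (1.32% of all genes), and without the second 2 higher, Col5a3 and Col22a1, and 1 lower, Col3a1 (1.34% of all genes). The count at 100 ng/ml was 0 without the first 100 ng/ml library and 1 without either untreated library or either 10 ng/ml library. Col6a4 and Col22a1 passed the filter on low counts through their TWEAK libraries, where they are high, so their direction was set by the filter. Without both, 5 of 35 chains rose at 10 ng/ml, 4 at 30 ng/ml and 1 at 100 ng/ml. The number of all genes called also moved with single libraries. Against untreated at 30 ng/ml it was 4041, and 2557 and 2685 without the first and the second untreated library and 2653 without the first 30 ng/ml library. At 100 ng/ml it was 194, and between 88 and 126 without 1 library of either group compared. These 3 comparisons share the untreated libraries.

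**Figure D2:**
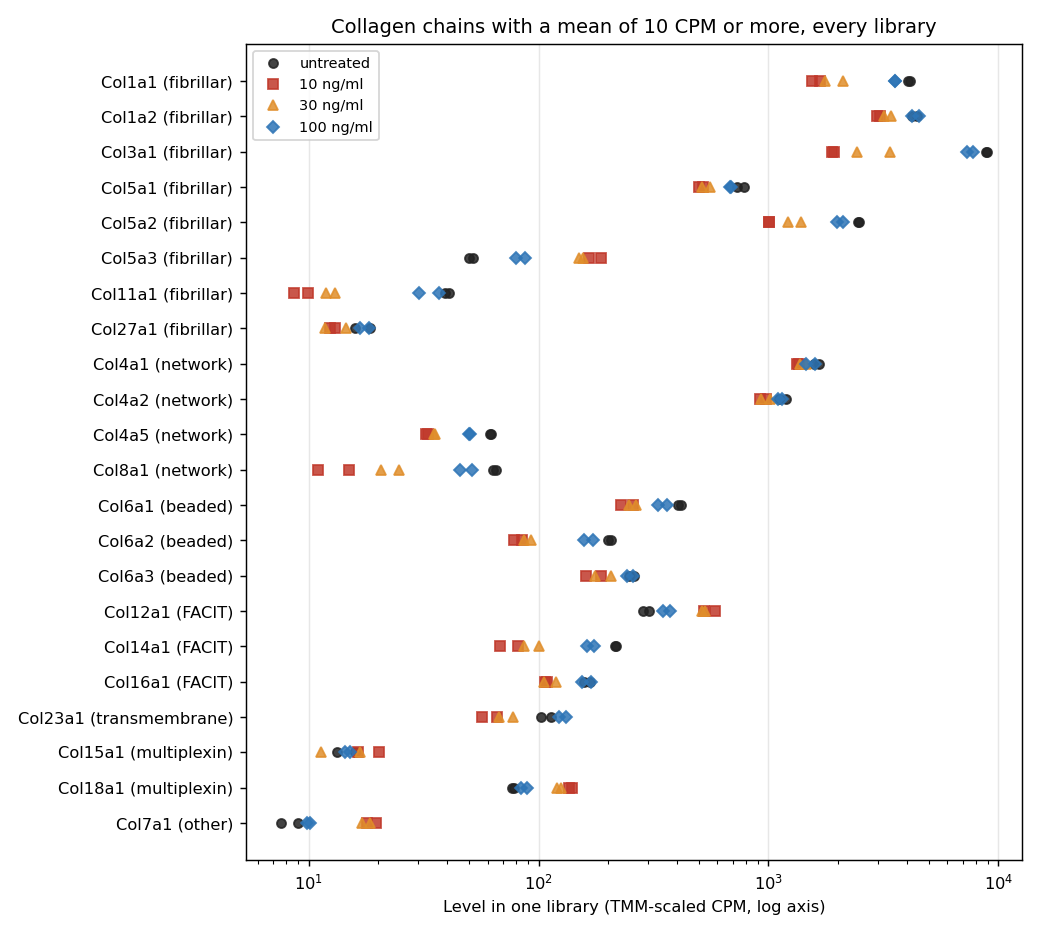
Level (TMM-scaled CPM, log axis) of the 22 chains with a mean of 10 CPM or more over the 8 libraries, 1 point per library. For most chains the points at 10 and 30 ng/ml lie left of the untreated points, and Col5a3, Col12a1, Col18a1 and Col7a1 lie to the right, with Col5a3 at 166.5 and 187.0 CPM at 10 ng/ml against 51.9 and 50.0 CPM untreated.

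Among the major fibrillar chains, the largest fall was in Col3a1, the single chain of type III collagen (GRCm38 chr1:45311538-45349706, + strand). It was at 8952 and 8867 CPM in untreated libraries, 1935 and 1885 at 10 ng/ml, 2438 and 3377 at 30 ng/ml and 7333 and 7768 at 100 ng/ml. The 4 groups did not overlap, and the 30 ng/ml libraries were the furthest apart of any pair. The fitted log2 change was -2.22 ± 0.13 at 10 ng/ml (a 4.66-fold fall, edgeR adjusted p = 1.54e-05), -1.62 ± 0.13 at 30 ng/ml (adjusted p = 9.15e-05) and -0.24 ± 0.13 at 100 ng/ml (adjusted p = 0.527). At 100 ng/ml the adjusted p was 0.0363 when only those groups were fitted and 0.0345 and 0.0372 without each 30 ng/ml library in turn.

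Type I collagen is built from Col1a1 and Col1a2, and both fell at 10 and 30 ng/ml by different amounts. Col1a1 (chr11:94936224-94953042, + strand) was at 4128 and 4049 CPM untreated, 1673 and 1543 at 10 ng/ml, 1761 and 2115 at 30 ng/ml and 3548 and 3542 at 100 ng/ml. Its 4 groups did not overlap. Its log2 change was -1.35 ± 0.08 at 10 ng/ml (edgeR adjusted p = 1.86e-05), -1.08 ± 0.08 at 30 ng/ml (adjusted p = 7.48e-05) and -0.21 ± 0.08 at 100 ng/ml (adjusted p = 0.371, or 0.0399 with only those groups fitted). Col1a2 (chr6:4504814-4541544, + strand) was at 4412 and 4225 CPM untreated, 3049 and 2964 at 10 ng/ml, 3192 and 3401 at 30 ng/ml and 4198 and 4503 at 100 ng/ml. The 100 ng/ml libraries of Col1a2 spanned the untreated ones, and those at 10 and 30 ng/ml lay below both. Its log2 changes were -0.52 ± 0.05 (edgeR adjusted p = 0.000169), -0.39 ± 0.05 (adjusted p = 0.00103) and 0.01 ± 0.05 (adjusted p = 0.971) at 10, 30 and 100 ng/ml.

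Per kilobase of transcript, the ratio of Col1a1 to Col1a2 was 0.844 and 0.864 in untreated libraries, 0.495 and 0.470 at 10 ng/ml, 0.498 and 0.561 at 30 ng/ml and 0.762 and 0.709 at 100 ng/ml. Chains of type I collagen usually assemble as a pair of Col1a1 products with a single Col1a2 product. The ratio of Col3a1 to Col1a1 was 2.31 and 2.33 untreated, 1.23 and 1.30 at 10 ng/ml, 1.48 and 1.70 at 30 ng/ml and 2.20 and 2.34 at 100 ng/ml. Both ratios were lower in all 4 libraries at 10 and 30 ng/ml than in any other library. In untreated cells, the levels per kilobase were 1601 CPM for Col3a1, 807.5 for Col1a2, 689.5 for Col1a1, 370.9 for Col5a2 and 244.9 for Col4a1. With these lengths, Col3a1 stood first of all chains in untreated cells, and at 30 ng/ml Col1a2 did, at 616.4 against 522.6 CPM per kilobase.

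Type V chains, which are built into type I fibrils and are known to set how fibrils start and how wide they grow, did not move together. Col5a2 fell most, from 2470 and 2444 CPM untreated to 1009 and 1011 at 10 ng/ml and 1213 and 1392 at 30 ng/ml, with 1989 and 2122 at 100 ng/ml. No groups overlapped, and the log2 changes were -1.28 ± 0.07 at 10 ng/ml (edgeR adjusted p = 1.01e-05), -0.92 ± 0.07 at 30 ng/ml (adjusted p = 6.58e-05) and -0.26 ± 0.07 at 100 ng/ml (adjusted p = 0.154). Col5a1 fell less, with 785.0 and 732.7 CPM untreated, 500.8 and 520.6 at 10 ng/ml, 515.3 and 557.4 at 30 ng/ml and 682.8 and 688.1 at 100 ng/ml. Its libraries at 10 and 30 ng/ml overlapped, and its log2 changes were -0.57 ± 0.06 (edgeR adjusted p = 0.000276) and -0.50 ± 0.06 (adjusted p = 0.000725) at those doses.

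Col5a3 (chr9:20770050-20815067, - strand), the least abundant of the 3 type V chains in untreated cells, rose at all 3 doses. It was at 51.9 and 50.0 CPM untreated, 166.5 and 187.0 at 10 ng/ml, 150.0 and 156.1 at 30 ng/ml and 87.7 and 79.5 at 100 ng/ml, with no overlap between groups. The log2 change was 1.80 ± 0.09 at 10 ng/ml (a 3.47-fold rise, edgeR adjusted p = 7.06e-06), 1.59 ± 0.09 at 30 ng/ml (adjusted p = 1.76e-05) and 0.71 ± 0.08 at 100 ng/ml (adjusted p = 0.00849). The call at 100 ng/ml was lost without either untreated library (adjusted p = 0.0625 and 0.0702) and without the first 100 ng/ml library (adjusted p = 0.0522). The ratio of Col5a3 to Col5a1 per kilobase was 0.0908 and 0.0938 untreated, 0.457 and 0.494 at 10 ng/ml, 0.400 and 0.385 at 30 ng/ml and 0.176 and 0.159 at 100 ng/ml.

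**Figure D3:**
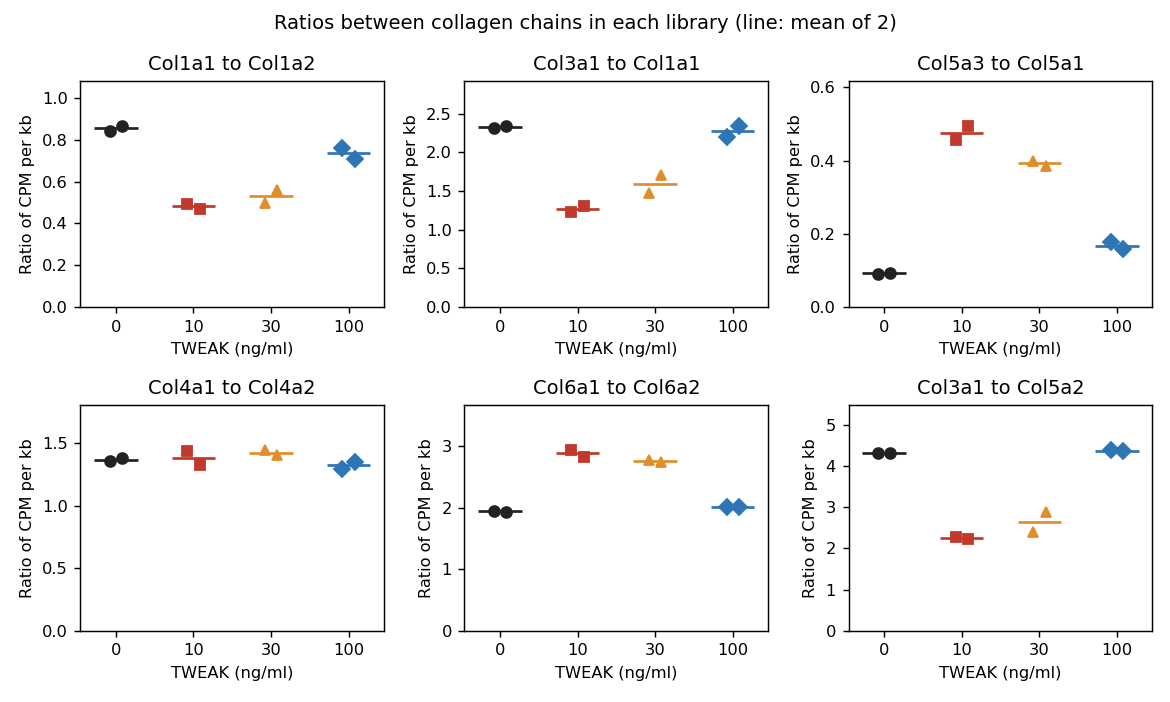
Ratio of CPM per kilobase between 6 pairs of chains (vertical axes from 0) against TWEAK dose, with a point per library and a line at the mean of 2. Col5a3 to Col5a1 is 0.0908 and 0.0938 untreated and 0.457 and 0.494 at 10 ng/ml, while Col4a1 to Col4a2 stays between 1.29 and 1.45 in all 8 libraries.

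The minor fibrillar chains were led by Col11a1, known from cartilage fibrils and also able to join type V chains. It was at 39.1 and 40.6 CPM untreated, 8.65 and 9.94 at 10 ng/ml, 11.9 and 13.1 at 30 ng/ml and 30.2 and 36.9 at 100 ng/ml, and no groups overlapped. Its log2 changes were -2.10 ± 0.13 at 10 ng/ml (edgeR adjusted p = 2.06e-05) and -1.68 ± 0.13 at 30 ng/ml (adjusted p = 7.93e-05). Col24a1, a low-level fibrillar chain, was at 4.65 and 5.82 CPM untreated and 1.60 and 2.95 at 10 ng/ml, with a log2 change of -1.20 ± 0.32 (edgeR adjusted p = 0.0246). That call was lost without the second untreated library (log2 change -1.027) and without the first 10 ng/ml library (log2 change -0.835). At 30 ng/ml the edgeR adjusted p of Col24a1 was 0.0513. By DESeq2 it was 0.0221, by limma-voom 0.034 and by edgeR with the replicate block 0.0174, but the chain did not pass in every alternative. Col27a1, a chain of developing cartilage, was at 18.5 and 15.8 CPM untreated and 13.0 and 12.3 at 10 ng/ml, with a log2 change of -0.44 ± 0.14 and an edgeR adjusted p of 0.0509. It passed at 10 ng/ml by DESeq2 (adjusted p = 0.046) and limma-voom (adjusted p = 0.0487). Col11a2, the remaining tested fibrillar chain, did not pass at any dose and stayed between 2.81 and 3.99 CPM in all libraries. In the fibrillar class as a whole, 7 of 10 tested chains fell at 10 ng/ml (14.2% of all genes) and 1 rose (15% of all genes), and at 30 ng/ml 6 fell (10.7% of all genes) and 1 rose (12.6% of all genes).

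Among the network-forming chains, 4 of 8 tested fell at 10 ng/ml (14.2% of all genes) and 0 rose (15% of all genes). Col4a1 and Col4a2 form the common type IV trimer and lie head to head on chromosome 8, where their first exons overlap by 22 bases. The shared stretch is shown because counts from it cannot be assigned to 1 of the genes without strand. It is written on the + strand of GRCm38, chr8:11312805-11312826.
Col4a1 and Col4a2 overlap: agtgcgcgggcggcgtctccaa
Col4a1 was at 1661 and 1579 CPM untreated, 1354 and 1328 at 10 ng/ml, 1374 and 1460 at 30 ng/ml and 1459 and 1589 at 100 ng/ml. The 100 ng/ml libraries overlapped the untreated ones, and those at 10 ng/ml lay below every other library. Its log2 change was -0.27 ± 0.06 at 10 ng/ml (edgeR adjusted p = 0.0087) and -0.19 ± 0.06 at 30 ng/ml (adjusted p = 0.0444). Col4a2 was at 1191 and 1116 CPM untreated, 915.6 and 976.2 at 10 ng/ml, 925.7 and 1014 at 30 ng/ml and 1101 and 1144 at 100 ng/ml. Libraries at 10 and 30 ng/ml overlapped each other and lay below the rest. Its log2 change was -0.29 ± 0.06 at 10 ng/ml (edgeR adjusted p = 0.0112) and -0.25 ± 0.06 at 30 ng/ml (adjusted p = 0.0247). Without the first untreated library neither chain passed at 10 ng/ml (adjusted p = 0.0708 and 0.0857) or at 30 ng/ml (adjusted p = 0.231 and 0.156), and Col4a2 did not pass at 10 ng/ml without the first library of that dose (adjusted p = 0.0669). At 30 ng/ml, Col4a1 did not pass in 9 alternatives (adjusted p = 0.0523 to 0.231) and Col4a2 in 3 (adjusted p = 0.0507 to 0.156), among them the fits without the second untreated library or the first 30 ng/ml library. The ratio of Col4a1 to Col4a2 per kilobase stayed between 1.29 and 1.45 in the 8 libraries.

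Col4a5, on the X chromosome, encodes a chain of the less widespread type IV trimers. It was at 62.1 and 61.2 CPM untreated, 32.5 and 33.2 at 10 ng/ml, 35.6 and 34.9 at 30 ng/ml and 50.5 and 49.6 at 100 ng/ml, with no overlap between groups. Its log2 changes were -0.91 ± 0.07 at 10 ng/ml (edgeR adjusted p = 5.58e-05), -0.81 ± 0.07 at 30 ng/ml (adjusted p = 0.000145) and -0.30 ± 0.07 at 100 ng/ml (adjusted p = 0.113). Col8a1 (chr16:57624258-57754737, - strand), a short network-forming chain known from blood vessels and the cornea, had the largest fall of the network class. It was at 65.4 and 63.5 CPM untreated, 15.0 and 11.0 at 10 ng/ml, 20.7 and 24.6 at 30 ng/ml and 45.4 and 51.5 at 100 ng/ml, and its 4 groups did not overlap. The log2 changes were -2.31 ± 0.16 at 10 ng/ml (a 4.97-fold fall, edgeR adjusted p = 3.35e-05), -1.51 ± 0.16 at 30 ng/ml (adjusted p = 0.000331) and -0.41 ± 0.15 at 100 ng/ml (adjusted p = 0.339). The other tested network chains, Col4a3, Col4a4, Col4a6 and Col8a2, did not pass at any dose and were at 3.07 CPM or less in every library.

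Type VI chains make the beaded filaments, built from Col6a1, Col6a2 and another chain such as Col6a3. Col6a2 fell most, from 205.6 and 201.4 CPM untreated to 84.7 and 77.9 at 10 ng/ml and 86.2 and 92.9 at 30 ng/ml, with 158.0 and 173.1 at 100 ng/ml. No groups overlapped. The log2 changes were -1.32 ± 0.08 (edgeR adjusted p = 1.81e-05) and -1.18 ± 0.08 (adjusted p = 4.6e-05) at 10 and 30 ng/ml. Col6a1, its neighbour on chromosome 10, was at 416.4 and 402.4 CPM untreated, 258.1 and 228.0 at 10 ng/ml, 247.5 and 264.4 at 30 ng/ml and 330.0 and 360.6 at 100 ng/ml, where the 10 and 30 ng/ml libraries overlapped and lay below the rest. Its log2 change was -0.75 ± 0.08 at 10 ng/ml (edgeR adjusted p = 0.000294) and -0.68 ± 0.08 at 30 ng/ml (adjusted p = 0.000668), and the ratio of Col6a1 to Col6a2 per kilobase went from 1.95 and 1.93 untreated to 2.93 and 2.82 at 10 ng/ml. Col6a3 was at 260.3 and 247.1 CPM untreated, 161.4 and 187.7 at 10 ng/ml, 176.6 and 205.6 at 30 ng/ml and 258.2 and 242.9 at 100 ng/ml. The 100 ng/ml libraries overlapped the untreated ones, and all 4 at 10 and 30 ng/ml were lower. Its log2 change was -0.54 ± 0.10 at 10 ng/ml (edgeR adjusted p = 0.00484) and -0.41 ± 0.10 at 30 ng/ml (adjusted p = 0.0209). The call at 30 ng/ml was lost without the first 30 ng/ml library (adjusted p = 0.118) and without either untreated library (adjusted p = 0.109 and 0.0605).

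Col6a4, another type VI chain, had almost no counts in untreated cells. It was at 0.06 and 0 CPM untreated, 4.38 and 4.89 at 10 ng/ml, 2.93 and 3.40 at 30 ng/ml and 0.43 and 0.68 at 100 ng/ml. With 3 counts over both untreated libraries and 373 at 10 ng/ml, the ratio of rates was 155 (95% interval 52.6 to 754), and it was 105 (35.6 to 513) at 30 ng/ml and 18.4 (5.89 to 92.5) at 100 ng/ml, for counting error only. The chain passed the filter on low counts through its TWEAK libraries alone. Its edgeR adjusted p was 0.0001 at 10 ng/ml, 0.000219 at 30 ng/ml and 0.0419 at 100 ng/ml, and the last was lost in 11 alternatives (adjusted p = 0.0601 to 0.269). Of its exon bases, 289 overlap other annotated genes on the opposite strand. Col6a5 had 35 counts over the untreated libraries and 0 at 10 ng/ml, which is at least 9.37-fold lower against a floor of 3 counts over the group, and its edgeR adjusted p was 0.0571. It passed the filter through 1 untreated and 1 100 ng/ml library, and by DESeq2 its adjusted p at 10 ng/ml was 0.0108.

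FACITs moved in both directions. Col12a1 and Col14a1 are related chains that bind the surface of type I fibrils. Col12a1 (chr9:79598991-79718831, - strand) rose, from 303.0 and 285.3 CPM untreated to 523.1 and 587.6 at 10 ng/ml and 530.1 and 515.4 at 30 ng/ml, with 371.7 and 347.2 at 100 ng/ml. Libraries at 10 and 30 ng/ml overlapped and lay above the rest, and those at 100 ng/ml lay above the untreated ones. Its log2 changes were 0.92 ± 0.07 at 10 ng/ml (edgeR adjusted p = 6.43e-05), 0.83 ± 0.07 at 30 ng/ml (adjusted p = 0.00015) and 0.29 ± 0.07 at 100 ng/ml (adjusted p = 0.141). Col14a1 (chr15:55307750-55520803, + strand) fell, from 218.0 and 214.9 CPM untreated to 81.2 and 67.7 at 10 ng/ml and 86.2 and 100.8 at 30 ng/ml, with 162.3 and 174.7 at 100 ng/ml. No groups overlapped for Col14a1, and its log2 changes were -1.54 ± 0.11 (edgeR adjusted p = 3.94e-05), -1.21 ± 0.11 (adjusted p = 0.000176) and -0.36 ± 0.11 (adjusted p = 0.22). In untreated cells the mean levels per kilobase were 25.6 CPM for Col12a1 and 33.5 for Col14a1, and at 30 ng/ml they were 45.4 and 14.5.

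Col16a1, a FACIT with a broad tissue range, fell from 167.8 and 157.1 CPM untreated to 109.2 and 106.6 at 10 ng/ml and 105.5 and 119.1 at 30 ng/ml, with 153.8 and 169.8 at 100 ng/ml. The 100 ng/ml libraries spanned the untreated ones. The fitted log2 changes were -0.59 ± 0.09 (edgeR adjusted p = 0.00146) and -0.53 ± 0.09 (adjusted p = 0.00312) at 10 and 30 ng/ml. Col22a1, a FACIT known from tissue junctions such as that of muscle and tendon, was at 0.22 and 0.38 CPM untreated, 9.78 and 9.72 at 10 ng/ml, 7.07 and 6.45 at 30 ng/ml and 1.53 and 1.05 at 100 ng/ml. No groups overlapped. The log2 changes were 5.01 ± 0.30 at 10 ng/ml (a 32.2-fold rise, edgeR adjusted p = 1.76e-05), 4.48 ± 0.30 at 30 ng/ml (adjusted p = 4.49e-05) and 2.09 ± 0.31 at 100 ng/ml (adjusted p = 0.0233, lost in 7 alternatives with adjusted p = 0.0526 to 0.188). Col22a1 had 11 and 19 counts in the untreated libraries. It passed the filter on low counts through its TWEAK libraries, where it is high, so its direction was set by the filter. The tested FACITs Col9a3 and Col20a1 did not pass at any dose and were at 0.77 to 1.75 CPM in every library.

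Transmembrane collagens are anchored in the plasma membrane and can be shed. Col23a1 was the only one above 10 CPM on average, with 113.8 and 102.3 CPM untreated, 56.8 and 66.1 at 10 ng/ml, 67.5 and 77.1 at 30 ng/ml and 123.3 and 131.1 at 100 ng/ml. The 100 ng/ml libraries lay above the untreated ones and those at 10 and 30 ng/ml below them. On the log2 scale its changes were -0.81 ± 0.11 (edgeR adjusted p = 0.000838), -0.58 ± 0.11 (adjusted p = 0.00558) and 0.24 ± 0.11 (adjusted p = 0.448). Col13a1, a chain of cell adhesion sites and the neuromuscular junction, was at 2.24 and 1.57 CPM untreated and 2.91 and 4.07 at 10 ng/ml, with a log2 change of 0.88 ± 0.28 (edgeR adjusted p = 0.047). That call was lost in 12 alternatives (adjusted p = 0.052 to 0.226), and at 30 ng/ml the log2 change was 0.88 ± 0.28 with an adjusted p of 0.0546. Col17a1 and Col25a1 did not pass at any dose.

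Both multiplexins, Col15a1 and Col18a1, are basement membrane collagens, and endostatin is a fragment of the Col18a1 product. Col18a1 rose from 78.0 and 76.4 CPM untreated to 135.8 and 139.5 at 10 ng/ml and 120.5 and 125.5 at 30 ng/ml, with 88.8 and 84.0 at 100 ng/ml, and no groups overlapped. Log2 changes were 0.83 ± 0.07 (edgeR adjusted p = 6.34e-05), 0.67 ± 0.07 (adjusted p = 0.000261) and 0.16 ± 0.07 (adjusted p = 0.39). Col15a1 was at 15.9 and 13.2 CPM untreated, 16.5 and 20.3 at 10 ng/ml, 11.3 and 16.7 at 30 ng/ml and 15.2 and 14.4 at 100 ng/ml, with overlapping groups and a log2 change of 0.33 ± 0.20 at 10 ng/ml (edgeR adjusted p = 0.256, 95% interval -0.13 to 0.80). Among chains of 10 CPM or more, Col15a1 had the largest ratio between the libraries of a group, 1.47 at 30 ng/ml.

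Col7a1, the chain of the anchoring fibrils under epithelia, rose from 8.97 and 7.58 CPM untreated to 18.0 and 19.5 at 10 ng/ml and 18.5 and 17.1 at 30 ng/ml, with 10.2 and 9.78 at 100 ng/ml. The 4 libraries at 10 and 30 ng/ml lay above the rest and overlapped each other. Against untreated, its log2 changes were 1.18 ± 0.13 (edgeR adjusted p = 0.000315), 1.11 ± 0.13 (adjusted p = 0.000589) and 0.27 ± 0.13 (adjusted p = 0.478). Col28a1, a chain with von Willebrand factor A domains like those of type VI, fell from 14.6 and 16.4 CPM untreated to 3.05 and 3.11 at 10 ng/ml and 3.06 and 3.38 at 30 ng/ml, with 10.4 and 12.0 at 100 ng/ml. The 4 libraries at 10 and 30 ng/ml lay far below the rest. The fitted log2 changes were -2.33 ± 0.15 (a 5.03-fold fall, edgeR adjusted p = 2.51e-05), -2.27 ± 0.15 (adjusted p = 4.52e-05) and -0.47 ± 0.14 (adjusted p = 0.228). Among the chains that passed at 10 ng/ml this was the largest fitted fall, within 1 SE of that of Col8a1.

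**Figure D4:**
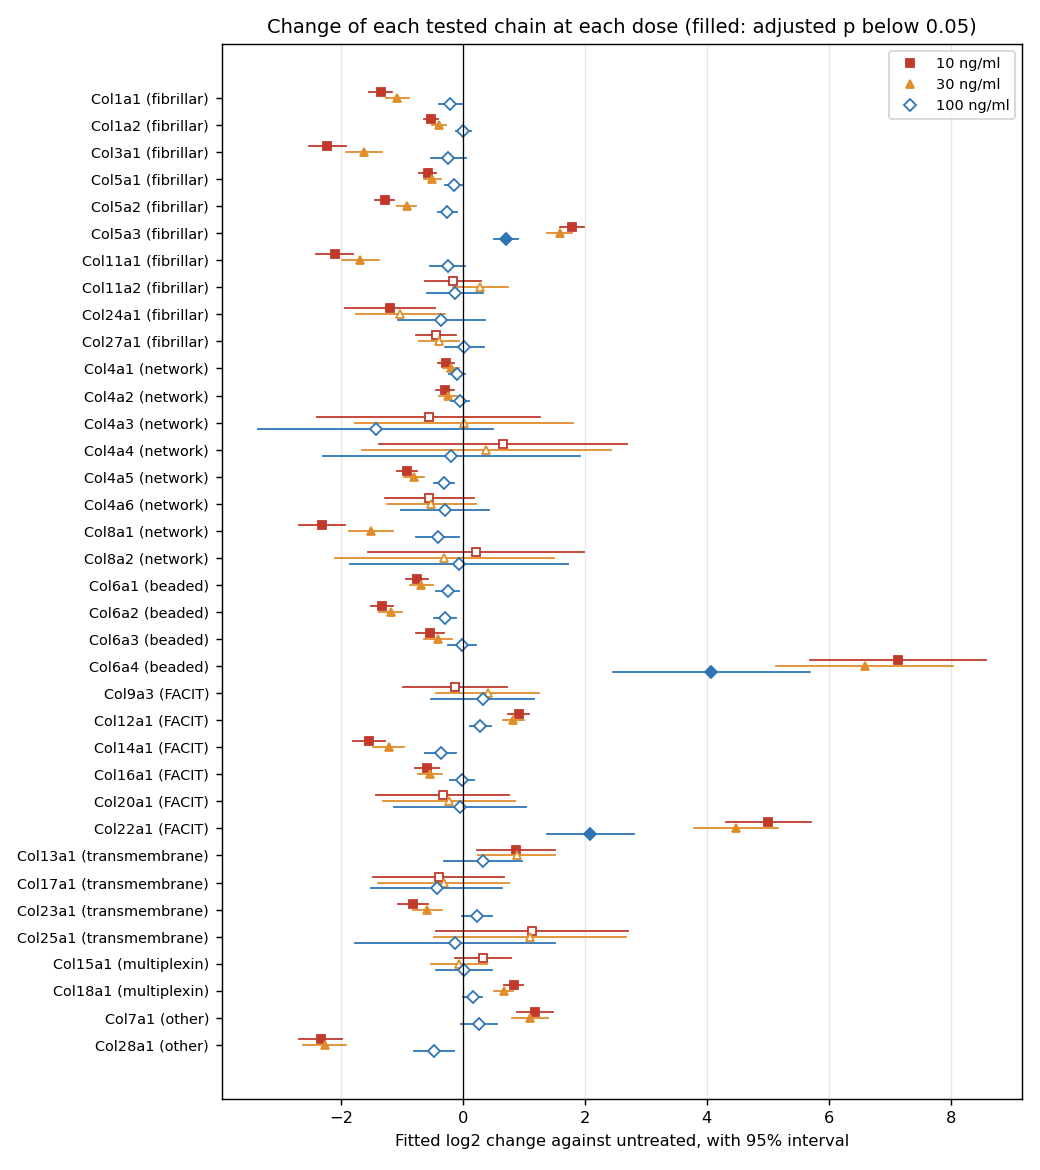
Fitted log2 change against untreated cells with its 95% interval (horizontal axis) for 36 of the 37 tested chains at each dose, with filled markers where the adjusted p was below 0.05. Col6a5 is left out because it had 0 counts at 10 ng/ml. Only Col5a3, Col6a4 and Col22a1 are filled at 100 ng/ml, with log2 changes of 0.71, 4.07 and 2.09.

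Doses were also compared with each other. Between 30 and 10 ng/ml, 0 of 37 chains passed by edgeR (0% of all genes), 9 were at an unadjusted p under 0.05 (6.96% of all genes), and DESeq2 called 3 (0.978% of the 12984 genes it gave an adjusted p). The DESeq2 calls were Col3a1, Col5a2 and Col8a1, all higher at 30 ng/ml, with edgeR log2 differences of 0.61 (adjusted p = 0.362), 0.37 (adjusted p = 0.286) and 0.80 (adjusted p = 0.306). Without the first 30 ng/ml library, edgeR called Col3a1 and Col5a2 (0.34% of all genes). Between 100 and 10 ng/ml, 22 of 37 passed (22% of all genes), 16 higher at 100 ng/ml (10.7% of all genes) and 6 lower (11.2% of all genes). Col3a1 was higher at 100 than at 10 ng/ml by a log2 difference of 1.98 ± 0.13 (edgeR adjusted p = 5.83e-05), Col8a1 by 1.90 ± 0.16 (adjusted p = 0.000158), Col28a1 by 1.86 ± 0.15 (adjusted p = 0.000138) and Col11a1 by 1.85 ± 0.13 (adjusted p = 7.46e-05). The 6 lower chains were Col5a3, Col6a4, Col12a1, Col22a1, Col18a1 and Col7a1, with Col5a3 at -1.08 ± 0.08 (edgeR adjusted p = 0.000115) and Col22a1 at -2.91 ± 0.26 (adjusted p = 0.000202). Between 100 and 30 ng/ml, 21 of 37 passed (15.2% of all genes), 15 higher (7.15% of all genes) and 6 lower (8.04% of all genes). Col3a1 was higher at 100 than at 30 ng/ml by 1.38 ± 0.13 (edgeR adjusted p = 0.000454). Over all genes, the 2637 called between 100 and 30 ng/ml became 1393 without the first 30 ng/ml library and 1594 and 1677 without the first and the second 100 ng/ml library, and the 3816 called between 100 and 10 ng/ml became 2445 without the first 100 ng/ml library.

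The order of the 4 group means was the same for many chains. In 18 of 37 chains the means fell in the order untreated, 100, 30 and 10 ng/ml, an order held by 16% of all genes tested. For 8 of these (Col1a1, Col3a1, Col5a2, Col11a1, Col4a5, Col8a1, Col6a2 and Col14a1) the libraries of neighbouring groups did not overlap, against 3.74% of all genes. The reverse order, with 10 ng/ml highest and untreated lowest, held in 6 chains (16.1% of all genes), and 4 of them (Col5a3, Col6a4, Col22a1 and Col18a1) had no overlap (3.51% of all genes). The place of untreated cells as lowest was set by the filter for Col6a4 and Col22a1, which leaves Col5a3 and Col18a1. No chain, 0 of 37, fell steadily with the labelled dose (2.08% of all genes, 0.0288% with no overlap) or rose steadily with it (2.25% of all genes, 0.023% with no overlap). These orders are a description of 2 libraries per group.

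Several chains are neighbours in the genome. Col3a1 and Col5a2 lie 24614 bases apart on chromosome 1 on opposite strands, and both fell, with the ratio of Col3a1 to Col5a2 per kilobase at 4.32 in both untreated libraries, 2.28 and 2.22 at 10 ng/ml, 2.39 and 2.89 at 30 ng/ml and 4.39 and 4.36 at 100 ng/ml. Col6a1 and Col6a2 lie 85161 bases apart and fell by different amounts, as given above. Col4a6, 1308 bases from Col4a5, was at 2.18 and 3.07 CPM untreated and 1.34 and 2.24 at 10 ng/ml with a log2 change of -0.55 ± 0.31 (edgeR adjusted p = 0.239), and its 95% interval of -1.27 to 0.18 includes the -0.91 of Col4a5.

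Chains too low to test were Col2a1, the main chain of cartilage, with 5 counts over the 8 libraries, Col6a6 with 14, Col19a1 with 21, Col9a2 with 28 and Col10a1, a chain of growth plate cartilage, with 58. Col9a1, a cartilage FACIT, and Col26a1 had 0 counts in every library, which allows up to 0.059 to 0.0805 CPM in each at 3 counts. Of the cartilage markers, Acan, Matn1 and Hapln1 were at 0 in all libraries, while Sox9 was at 15.3 and 13.9 CPM untreated and 30.3 and 34.6 at 10 ng/ml, and Sox5 at 17.8 and 14.8 untreated and 5.58 and 10.3 at 10 ng/ml. The filter asked for about 0.237 CPM in enough libraries, and no statement is made on how these 7 chains responded.

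Genes that fold, cut, crosslink, bind or degrade collagen were listed beside the chains. Of all genes tested, 15% rose and 14.2% fell at 10 ng/ml, 12.6% and 10.7% at 30 ng/ml and 0.812% and 0.305% at 100 ng/ml, and the counts below stand beside these shares. Of 21 genes for folding, modification and export, 19 were tested, and at 10 ng/ml 3 rose and 8 fell (3 and 6 at 30 ng/ml, 0 and 0 at 100 ng/ml). Plod1, a lysyl hydroxylase, fell from 207.4 and 194.5 CPM to 109.4 and 97.0 (log2 change -0.96 ± 0.10, edgeR adjusted p = 0.000202). P4ha3, a prolyl hydroxylase subunit, fell by 1.15 on the log2 scale and Plod2, another lysyl hydroxylase, by 0.66, while Colgalt1, which adds galactose to hydroxylysine, rose by 0.79. Of 10 genes for propeptide removal, 9 were tested, and 1 rose (15% of all genes) and 5 fell (14.2% of all genes) at 10 ng/ml (1 and 4 at 30 ng/ml, 0 and 0 at 100 ng/ml). Adamts2, a protease that removes the amino propeptide of fibrillar procollagen, fell from 1811 and 1653 CPM to 561.3 and 500.0 (log2 change -1.71 ± 0.09, edgeR adjusted p = 1.01e-05). Adamts3, a related protease, fell by 2.94 and Pcolce2, an enhancer of carboxyl propeptide removal, by 1.20, and Adamts14, another protease of this family, rose from 8.63 and 8.91 CPM to 47.9 and 44.1 (log2 change 2.39 ± 0.14, edgeR adjusted p = 1.51e-05).

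Crosslinking and fibril assembly had 13 listed genes, of which 12 were tested, and 1 rose (15% of all genes) and 8 fell (14.2% of all genes) at 10 ng/ml (0 and 8 at 30 ng/ml, 0 and 0 at 100 ng/ml). Lox, the lysyl oxidase that starts crosslinks, was at 454.9 and 468.4 CPM untreated and 110.8 and 106.1 at 10 ng/ml (log2 change -2.09 ± 0.12, edgeR adjusted p = 1.5e-05). Fmod, a proteoglycan on fibrils, fell by 3.02, Loxl2, a lysyl oxidase relative, by 1.49 and Thbs1, a matrix glycoprotein, by 0.87. Of 10 receptors and uptake genes, 8 were tested, and 1 rose and 5 fell at 10 ng/ml and, beside 12.6% and 10.7% of all genes, at 30 ng/ml, with 0 and 0 at 100 ng/ml. Among the collagen-binding integrins, Itga1 fell from 81.6 and 82.8 CPM to 25.0 and 26.2 (log2 change -1.68 ± 0.09, edgeR adjusted p = 1.13e-05), and Itga2 rose from 39.2 and 37.9 CPM to 84.2 and 100.1 (log2 change 1.26 ± 0.10, adjusted p = 5.58e-05). Ddr1, a collagen receptor kinase, fell by 1.02, and Mrc2, an uptake receptor, by 0.65.

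All 11 listed collagen-degrading proteases were tested, and 4 rose (15% of all genes) and 3 fell (14.2% of all genes) at 10 ng/ml (3 and 3 at 30 ng/ml, 1 and 0 at 100 ng/ml). Mmp9, a gelatinase, was at 0.18 and 0.14 CPM untreated, 336.9 and 380.1 at 10 ng/ml, 246.1 and 181.6 at 30 ng/ml and 13.2 and 11.8 at 100 ng/ml. Its untreated libraries lay under the filter's 0.237 CPM, so it was tested only through the TWEAK libraries where it is high, and its direction was set by the filter. Mmp9 is among the proteases counted above as risen at each dose, and at 100 ng/ml it is the only 1. With 16 counts over both untreated libraries, 28874 at 10 ng/ml and 999 at 100 ng/ml, the ratio of rates was 2250 (95% interval 1380 to 3930) at 10 ng/ml and 78.2 (47.9 to 137) at 100 ng/ml, for counting error only. Mmp2, the other gelatinase, fell by 1.09 on the log2 scale at 10 ng/ml, Mmp8, a collagenase, fell by 0.92 and Ctsk, a lysosomal collagenase, rose by 0.50. For each list the median log2 change at 10 ng/ml was below 0, at -0.17 for folding, -0.69 for propeptide removal, -0.97 for crosslinking, -0.43 for receptors and -0.26 for proteases, against 0.01 for all genes tested.

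Markers of other cells were read beside these changes for their whole lists. Summed mesothelial markers (6 genes) were at 17.1 to 17.4 CPM untreated, 5.54 to 7.56 at 10 ng/ml, 5.68 to 6.11 at 30 ng/ml and 11.3 to 14.6 at 100 ng/ml, and leukocyte markers (8 genes) at 11.6 to 15.3 CPM untreated and 21.7 to 27.3 with TWEAK, with Cd3e at 0 in all libraries. Smooth muscle and pericyte markers (7 genes) summed to 129.2 to 146.6 CPM untreated and at 100 ng/ml, and to 162.8 to 187.6 at 10 and 30 ng/ml. Against untreated, Des, Rgs5 and Cspg4 of this list were higher at 10 ng/ml, and Myh11, Cnn1, Actg2 and Notch3 were lower. Cartilage markers (6 of 7 in the table) summed to 26.4 to 44.9 CPM and Schwann cell markers (5 genes) to 5.05 to 8.05 with Sox10 at 0. Their part in the collagen changes was not tested.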

How the data were processed

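RNA sequencing of 8 libraries gave 1 deposited table of raw counts, whole numbers per gene row with no normalization by the authors. Per the submitters' processing notes, tools included STAR and StringTie with the mm10 build, without versions or steps. How counts were assigned, with which annotation and with what use of strand, is not given in the sources used here. Odd values made up 64.2 to 66.8% of counts from 1 to 20, and whether reads or read pairs were counted is not known. Rows without a symbol (3225 of 55335, 0.168 to 0.178% of counts) were left out.

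Groups and replicate numbers came from the sample titles. edgeR 4.0.16 in R 4.3.3 was used with filterByExpr by group, TMM scaling, 1 mean per group and glmQLFTest (two-sided, 4 residual and 3.77 prior degrees of freedom). SEs are the log2 change divided by the square root of F. Procedures were tested on simulated data. Alternatives were limma-voom (limma 3.58.1), DESeq2 1.42.0, other scalings and filters, a replicate block and leaving out each library. A fit that leaves 1 library in a group assumes that it varies like the other groups.

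Positions and lengths are from GENCODE M21 (GRCm38), with the transcript of the longest coding sequence as length, and promoter windows from RefSeq. Intervals and floors cover counting error only. Chains with a mean of at least 10 CPM, or called at any dose against untreated, are given with values, and up to 4 genes of each pathway list with the smallest p at 10 ng/ml. The members, classes and lists were chosen with earlier results of these data known, and leaving out both 100 ng/ml libraries was chosen after seeing the data.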

Additional observations from a re-analysis of the deposited data

Results flagged for a closer look

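Col1a2 and Col23a1 had fitted changes against untreated of opposite sign at 10 and 100 ng/ml, with a called difference between those doses. Col1a2 had log2 changes of -0.52 at 10 ng/ml and 0.01 at 100 ng/ml, and was higher at 100 than at 10 ng/ml by 0.53 ± 0.05 (edgeR adjusted p = 0.000263). The 95% interval of the change at 100 ng/ml (-0.10 to 0.13) included 0. Col23a1 had log2 changes of -0.81 at 10 ng/ml and 0.24 at 100 ng/ml (95% interval -0.01 to 0.48), and was higher at 100 than at 10 ng/ml by 1.05 ± 0.11 (edgeR adjusted p = 0.000374). Both 100 ng/ml libraries of Col23a1, 123.3 and 131.1 CPM, were above both untreated libraries, 113.8 and 102.3 CPM.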

How the results depend on the processing

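No chain reversed its direction while called, and the counts at 10 and 30 ng/ml stayed within 1.5 times the reported ones. Leaving out 1 library in turn gave 22 to 26 chains at 10 ng/ml, 20 to 23 at 30 ng/ml, 21 to 24 between 100 and 10 ng/ml and 19 to 22 between 100 and 30 ng/ml. Against untreated, 21 of 25 calls at 10 ng/ml and 20 of 23 at 30 ng/ml were kept in every alternative run, and 0 of 3 at 100 ng/ml. At 100 ng/ml the reported 3 became 5 with DESeq2 (Col12a1 higher and Col14a1 lower were added), 1 with limma-voom, 3 with only the groups compared (1 higher, 2 lower), and 0 to 4 without 1 library: 0 without the first 100 ng/ml library and 1 without either untreated library or either 10 ng/ml library. Between 30 and 10 ng/ml the reported 0 became 3 with DESeq2 and 0 to 2 without 1 library. The cause was not tested. Same-numbered libraries of different groups had deviations with correlations of -0.046 to 0.028, so they showed no shared shift over all genes. Whether they share a culture or mouse cannot be told from this. With the replicate block the counts were 24 at 10 ng/ml, 23 at 30 ng/ml and 1 at 100 ng/ml. Between doses they were 0 between 30 and 10 ng/ml, 23 between 100 and 10 ng/ml and 21 between 100 and 30 ng/ml. With 2 libraries per group, the 5 tested chains under 1 CPM on average had 95% intervals wider than 1 log2 unit at each dose. So did Col24a1, Col4a6, Col6a4, Col9a3, Col20a1, Col22a1, Col13a1 and Col17a1, which were between 1 and 10 CPM. Where such a chain did not pass, its level may still have changed. Among the chains under 1 CPM, Col6a5 had an edgeR adjusted p of 0.0571 at 10 ng/ml, which was 0.0108 by DESeq2 and 0.0446 with only the groups compared. It had 10 and 25 counts in the untreated libraries. As it passed the filter through 1 untreated and 1 100 ng/ml library, its direction at 10 ng/ml was set by the filter.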
